A study of Mus musculus with 11 samples.

Results

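The genes described here are 42 protein-coding genes that act in the G2 phase of the cell cycle and in mitosis. They were chosen by gene name and function from a table of 55487 mouse genes, with earlier results of these data known, and all 42 were found in it and had enough counts to be tested. Expression was measured by RNA sequencing in 4 libraries of macrophages treated with CYR61 at 0.5 µg/ml for 24 h and in 7 libraries of control macrophages given 0 µg/ml. All cells were bone marrow-derived macrophages of C57BL/6J mice aged 2 to 5 months, grown from marrow over 5 to 6 days in medium with 10% CMG-conditioned medium and then kept in medium with 2%. CMG-conditioned medium is a source of macrophage colony-stimulating factor, on which these cells depend for survival and division. CYR61 (CCN1) is a protein of the extracellular matrix that cells bind through integrins. Neither a vehicle for the controls nor separate animals or cultures per library are named in the labels. The p-values therefore measure only how far these libraries differ from each other, and that spread may be technical.

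Cells that prepare to divide switch on a shared program in G2. Cyclin A and cyclin B activate the kinase Cdk1, which drives entry into mitosis; Polo and Aurora kinases build the spindle, kinetochores tie chromosomes to it, and the spindle checkpoint holds the cell until every chromosome is attached. The anaphase-promoting complex with Cdc20 then marks cyclin B and securin for destruction, and the cell divides. Transcription of these genes rises late in the cycle through Foxm1, B-Myb and the MuvB complex, and is low in resting cells. In macrophages grown in culture the transcripts come from the fraction of cells still in cycle. In bulk RNA, fewer cells in G2 or mitosis and less of each transcript per cell cannot be told apart.

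The CYR61 libraries held 17390272 to 20760322 counts and the control libraries 14912123 to 21047654. Macrophage markers were high in every library: Adgre1 (F4/80), Csf1r (the receptor of macrophage colony-stimulating factor) and Cd68 averaged 918 ± 72.4, 3271 ± 57.8 and 1180 ± 67.9 CPM in CYR61 libraries and 744 ± 31.9, 2992 ± 96.3 and 1207 ± 71.3 CPM in control libraries (SD, n = 4 and n = 7). CPM are read counts scaled to a common library size, with TMM factors between libraries. Markers of granulocyte-monocyte progenitors, marrow cells that also divide, were near 0: 9 of 10 had at most 10 counts in any library, and their sum was 0.939 to 1.89 CPM in CYR61 libraries and 1.14 to 1.96 CPM in control libraries. Among markers of other cell types, Pax5, Cd3e, Ncr1, Ly6g and Lum had no count in any library. In those lists 2 genes fell and 4 rose by edgeR, all named after their values were seen. Many genes of those lists had too few counts to be tested. Of all genes tested 2.63% fell and 5.33% rose. Of 7 endothelial markers 2 were tested and 1 fell. This was Vwf (von Willebrand factor), with 120.7 ± 8.14 CPM in CYR61 libraries and 145.6 ± 5.09 CPM in control libraries. The endothelial sum was 116.9 to 137.7 CPM in CYR61 libraries and 144.0 to 157.4 CPM in control libraries. Kdr had 4.16 ± 0.525 CPM in CYR61 libraries and 4.88 ± 0.684 CPM in control libraries and did not pass. Cdh5 and Pecam1 averaged 0.341 and 0.239 CPM in CYR61 libraries and 0.325 and 0.244 CPM in control libraries. Of 7 osteoclast markers 5 were tested. Atp6v0d2 fell, with 53.9 ± 1.68 CPM in CYR61 libraries and 64.2 ± 3.59 CPM in control libraries. Acp5 rose, with 9.08 and 7.11 CPM, and Calcr was at 0. Nfatc1 and Ctsk averaged 130.6 and 21.6 CPM in CYR61 libraries and 133.7 and 20.4 CPM in control libraries and did not pass. The osteoclast sum was 211.5 to 220.8 CPM in CYR61 libraries and 218.2 to 231.4 CPM in control libraries. Bst2, listed as a dendritic cell marker, rose to 155.1 ± 11.3 CPM in CYR61 libraries, against 117.1 ± 15.4 CPM in control libraries. The other dendritic cell markers were near 0 and none was called. The highest of them, Zbtb46, averaged 0.850 CPM in CYR61 libraries and 0.909 CPM in control libraries. Siglech was at 0 in every CYR61 library and averaged 0.162 CPM in control libraries. Pf4, a megakaryocyte marker, rose to 7.54 ± 0.816 CPM, against 4.20 ± 1.153 CPM in control libraries. Itga2b of the same list had 2.61 ± 0.555 CPM in CYR61 libraries and 2.82 ± 0.377 CPM in control libraries and did not pass. S100a8, a neutrophil marker, rose to 1.69 ± 0.153 CPM, against 0.970 ± 0.264 CPM. Mmp8, which makes up most of the neutrophil sum, had 41.7 ± 3.797 CPM in CYR61 libraries and 43.1 ± 2.50 CPM in control libraries and did not pass. The call of S100a8 was lost without CYR61 replicate 2, 3 or 4 and that of Acp5 without CYR61 replicate 3 (adjusted p of 0.0125 to 0.103 and 0.00935 to 0.0764 over 24 alternatives). The part of these markers in the results on mitotic genes was not tested. CYR61 replicate 4 had 2.41% of its counts in ribosomal RNA genes, against 0.246 to 0.562% in the other CYR61 libraries and 0.255 to 0.797% in control libraries. CYR61 replicate 1 had 0.953% of its counts in mitochondrial genes, against 1.32 to 1.39% in the other CYR61 libraries and 1.24 to 1.5% in control libraries.

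Nearly all of the G2 and mitosis genes were lower in CYR61-treated macrophages, by modest amounts. In the edgeR quasi-likelihood fit over all genes, 29 of the 42 fell at a Benjamini-Hochberg adjusted p under 0.05, 0 rose and 13 did not pass. Of all 15135 genes tested, 2.63% fell, 5.33% rose and 7.96% were called in either direction in the same fit. Among the members called, Cenpf fell by 22.01% and Top2a, at the other end, fell by 7.21%. No member was called higher by DESeq2 or limma-voom either, and none was higher at an unadjusted p under 0.05, whereas 38 were lower at that level. Of all genes tested, 9.26% were lower and 11.2% higher at an unadjusted p under 0.05. The median log2 fold change of the 42 genes was -0.17, a level of 0.886 times control, against -0.01 for all genes tested. The fold change was below 0 for 41 members, against 52.5% of all genes tested.

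The summed level of the 42 genes was 2497, 2567, 2707 and 2653 CPM in CYR61 replicates 1 to 4, against a lowest value of 2983, a median of 3004 and a highest value of 3082 CPM in the 7 control libraries. Every CYR61 library lay below every control library, and the control libraries lay closer together than the CYR61 libraries. The genes took 0.248 to 0.265% of all counts in CYR61 libraries and 0.3 to 0.313% in control libraries. All 4 CYR61 values lay below all 7 control values for 26 of the 42 genes, which is 61.9%, against 2.5% of all genes tested. For 0 members did all CYR61 values lie above the controls, against 4.65% of all genes tested. Among the CYR61 libraries, replicate 1, the library with the low mitochondrial share, had the lowest value for 23 members and replicate 2 for 11, while replicate 3 had the highest for 21 and replicate 4 for 17. Relative to the control mean, the median member stood at -0.23, -0.21, -0.14 and -0.16 in CYR61 replicates 1 to 4 on the log2(CPM + 0.1) scale, and at -0.04 to 0.04 in the control libraries. Without CYR61 replicate 1 the count of falls was 22, without replicate 2 it was 20, without replicate 3 it was 29 and without replicate 4 it was 27. Over all genes, these fits called lower 440 of 15320, 205 of 15317, 275 of 15355 and 285 of 15321, against 398 of 15135. Without replicates 1 and 4 together, an alternative added later, 14 members fell, and 290 of all 15651 genes tested. In that fit alone among 24 alternatives Cdc20, Ccnb2, Ckap2l, Hmmr, Ccnb1 and Tpx2 lost their calls, with adjusted p of 0.0528, 0.0529, 0.063, 0.0796, 0.0838 and 0.0976 (edgeR, Benjamini-Hochberg). The lowest adjusted p of these 6 genes over the 24 lay between 2.37e-05 for Cdc20 and 0.000773 for Hmmr.

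**Figure D1:**
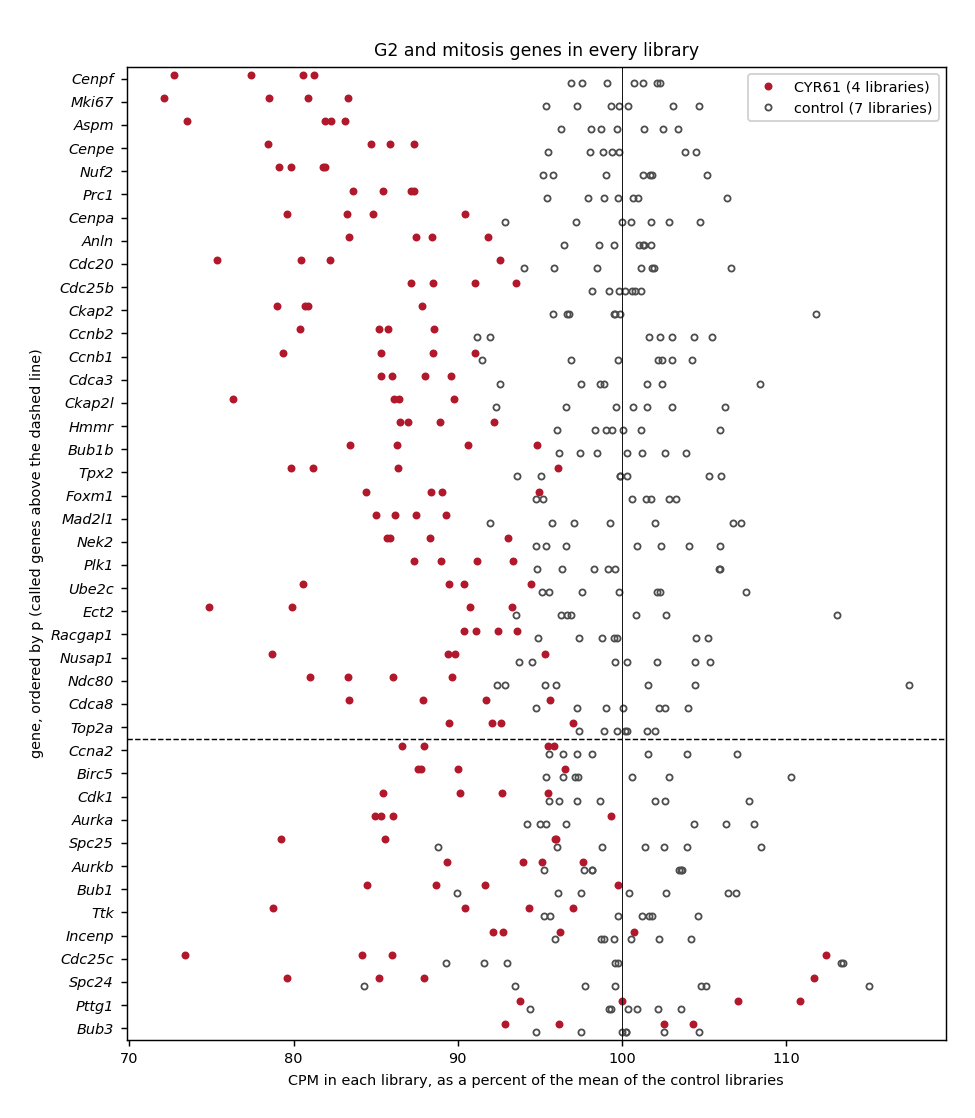
CPM of each of the 42 genes in each CYR61 library (filled red) and control library (open grey), as a percent of the mean of the control libraries; genes are ordered by p, and the 29 called lower stand above the dashed line. For 26 of the 42 genes all 4 CYR61 points lie left of all 7 control points.

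**Figure D2:**
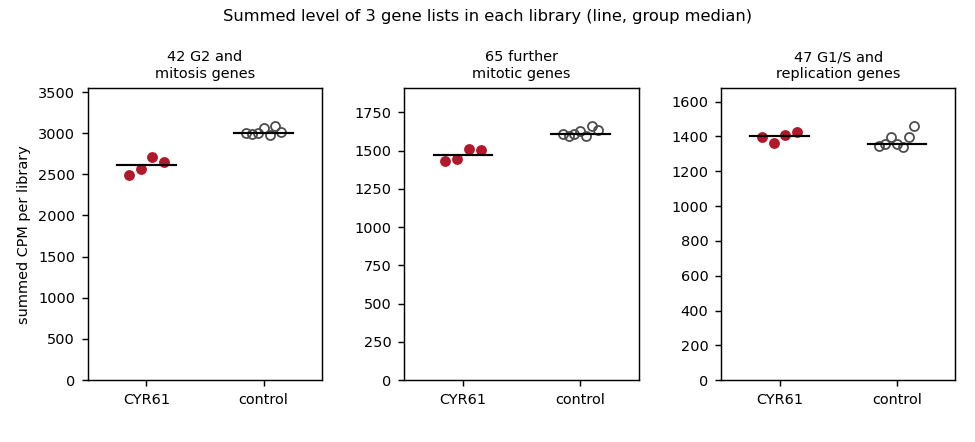
Summed CPM per library of the 42 G2 and mitosis genes, of 65 further mitotic genes and of 47 G1/S and replication genes, for CYR61 (left) and control (right) libraries, with the group median as a line. The first list lies at 2497 to 2707 CPM in CYR61 and 2983 to 3082 CPM in control libraries, and the G1/S list overlaps between the groups.

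The promoters of these genes share short sequence elements. The CHR element (TTTGAA), bound by MuvB complexes, and the CCAAT box, bound by NF-Y, were searched on both strands in RefSeq promoter windows of build GRCm38.p6, which run from 250 bases before to 50 bases after each gene start. Windows were found for 35 of the 42 genes (38 windows, since some genes have 2 starts). TTTGAA was in 28 windows, which is 73.7%, against 17.9% of all 32851 promoter windows. CCAAT was in 31 windows (81.6%), against 37.4% of all windows, and both were in 26 windows (68.4%), against 6.95%. TTTAAA, a variant of the CHR letters, was in 23.7% of the members' windows and in 13.2% of all windows. A TTTAAA match cannot overlap a TTTGAA match, and either can share at most 1 letter with CCAAT. Neither TTTGAA nor CCAAT was in the windows of Nuf2, Mad2l1, Nusap1, Birc5 and Pttg1, which says only that these letters are not there. Incenp, Aurkb, Ccna2, Spc24, Cdc25c, Foxm1 and Tpx2 have no entry in the promoter table. A match is a run of letters and no measured binding site. TTTGAA was in 22 of 29 windows (75.9%) of genes that fell and in 6 of 9 windows (66.7%) of those that did not pass. CCAAT was in 82.8% and 77.8% of these windows, and 2 or more CCAAT matches in 55.2% and 77.8%. The 9 windows come from 8 genes, and the differences were not tested. For the G1/S and DNA replication genes described further on, TTTGAA was in 9 of 46 windows (19.6%) and CCAAT in 25 (54.3%). At least 2 CCAAT matches were in 30.4% of these 46 windows, 60.5% of the members' windows and 11.7% of all windows. The stretch from 200 bases before to 30 bases after the start is shown for Cenpf, Mki67, Aspm, Cdc20 and Ccnb2, which fell and hold both motifs, and for Cdk1, which holds both and did not pass, 5′ to 3′ on the strand of the gene. Capitals mark TTTGAA and CCAAT on either strand, so that ATTGG is CCAAT on the other strand.
Cenpf (chr1:189688057-189688286, minus strand): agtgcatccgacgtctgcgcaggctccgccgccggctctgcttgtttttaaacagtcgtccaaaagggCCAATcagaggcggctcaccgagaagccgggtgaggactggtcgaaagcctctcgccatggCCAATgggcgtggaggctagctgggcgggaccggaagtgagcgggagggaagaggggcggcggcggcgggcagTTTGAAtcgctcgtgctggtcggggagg
Mki67 (chr7:135716350-135716579, minus strand): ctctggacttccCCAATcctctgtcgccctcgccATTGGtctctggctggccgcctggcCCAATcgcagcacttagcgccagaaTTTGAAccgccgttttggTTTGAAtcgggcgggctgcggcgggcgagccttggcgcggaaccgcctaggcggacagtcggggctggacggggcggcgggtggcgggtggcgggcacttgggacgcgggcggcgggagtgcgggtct
Aspm (chr1:139454573-139454802, plus strand): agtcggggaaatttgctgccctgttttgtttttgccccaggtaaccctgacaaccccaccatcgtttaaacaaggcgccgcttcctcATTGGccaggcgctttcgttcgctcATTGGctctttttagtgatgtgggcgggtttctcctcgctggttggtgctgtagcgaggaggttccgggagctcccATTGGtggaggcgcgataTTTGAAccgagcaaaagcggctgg
Cdc20 (chr4:118437314-118437543, minus strand): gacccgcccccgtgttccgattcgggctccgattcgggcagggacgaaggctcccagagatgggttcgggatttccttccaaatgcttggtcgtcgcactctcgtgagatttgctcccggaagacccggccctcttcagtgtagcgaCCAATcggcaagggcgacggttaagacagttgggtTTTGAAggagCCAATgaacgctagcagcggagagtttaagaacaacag
Ccnb2 (chr9:70421525-70421754, minus strand): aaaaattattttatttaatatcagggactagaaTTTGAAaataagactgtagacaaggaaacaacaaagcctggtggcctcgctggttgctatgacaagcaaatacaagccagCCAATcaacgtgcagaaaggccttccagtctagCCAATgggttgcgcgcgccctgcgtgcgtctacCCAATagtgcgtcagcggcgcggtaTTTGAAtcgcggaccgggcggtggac
Cdk1 (chr10:69352883-69353112, minus strand): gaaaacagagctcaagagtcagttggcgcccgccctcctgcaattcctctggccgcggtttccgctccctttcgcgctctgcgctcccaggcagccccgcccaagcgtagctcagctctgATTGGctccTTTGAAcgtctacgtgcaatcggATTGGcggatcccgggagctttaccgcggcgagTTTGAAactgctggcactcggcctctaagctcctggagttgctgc
In Cenpf, Aspm and Ccnb2 a TTTGAA begins 3, 7 and 5 bases after the start, counted with the first transcribed base as 1, and in Cdc20 it begins 18 bases before the start. In Mki67 a pair of TTTGAA matches begins 116 and 98 bases before the start, downstream of its CCAAT matches. Cdk1 has TTTGAA matches beginning 71 and 15 bases before the start and a CCAAT match 48 bases before it.

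Genes of the centromere and kinetochore, the structures that attach chromosomes to the spindle, held the largest fall: 5 of 7 fell, 0 rose and 2 did not pass. Cenpf, a large protein of the outer kinetochore and nuclear envelope, was measured at 76.6, 81.5, 84.8 and 85.5 CPM in the CYR61 libraries and at 102 to 108 CPM (median 106) in the control libraries. It stood at 0.78 times control (log2 fold change -0.36 ± 0.0333 SE, edgeR, Benjamini-Hochberg adjusted p = 2.09e-06). Cenpe, the kinetochore kinesin that moves chromosomes to the spindle equator, had 65.1, 71.3, 70.3 and 72.5 CPM in CYR61 libraries and 79.3 to 86.7 CPM (median 82.5) in control libraries, or 0.841 times control. The groups did not overlap for either gene, and the lowest CYR61 value was that of replicate 1. Nuf2 and Ndc80 form the Ndc80 complex, which grips microtubules, together with Spc24 and Spc25. Nuf2 had 19.35, 19.53, 20.01 and 20.03 CPM in CYR61 libraries and 23.3 to 25.7 CPM (median 24.8) in control libraries, with no overlap. Ndc80 had 22.2, 21.6, 23.0 and 23.9 CPM in CYR61 libraries and 24.7 to 31.3 CPM (median 25.6) in control libraries. These subunits stood at 0.806 and 0.848 times control (adjusted p = 0.000222 and 0.0276). Spc25 and Spc24 did not pass: Spc25 had 13.7 to 16.6 CPM in CYR61 libraries and 15.3 to 18.7 CPM in control libraries, and Spc24 had 6.82 to 9.57 and 7.22 to 9.85 CPM. Their 95% intervals of the log2 fold change were -0.309 to -0.0267 and -0.349 to 0.0653. Both hold the value of Ndc80 (-0.2374), but only the interval of Spc24 holds that of Nuf2 (-0.3115). Cenpa, the histone H3 variant that marks centromeres, had 58.6, 57.5, 62.5 and 55.0 CPM in CYR61 libraries and 64.1 to 72.3 CPM (median 69.5) in control libraries, or 0.845 times control (adjusted p = 0.000544). The call of Ndc80 was lost without CYR61 replicate 1, 2 or 3 or control replicate 3 or 5, and in 9 of 24 alternatives in all, with adjusted p of 0.00983 to 0.114 over the 24.

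Both genes of mitotic chromosomes fell. Mki67 encodes the Ki-67 antigen, which coats mitotic chromosomes and is the usual marker of dividing cells. It had 490.0, 534, 566 and 549.5 CPM in the CYR61 libraries and 648 to 711 CPM (median 678) in the control libraries. This is 0.787 times control (log2 fold change -0.35 ± 0.0379 SE, edgeR, Benjamini-Hochberg adjusted p = 1.28e-05). Per kilobase of exon, Mki67 had the highest level of the 42 genes, with 53.2 CPM in CYR61 and 67.6 CPM in control libraries, and Cdc25c the lowest, with 1.16 and 1.31 CPM. Ccnb2, Cdc25b, Top2a and Incenp came next after Mki67 in control libraries, at 37.4, 35.7, 29.0 and 28.7 CPM per kilobase. Top2a has 9013 bases of merged exon but a longest transcript of 5221 bases. For Ccnb2 both lengths are 1531 bases, so the order of these genes depends on the length used. Top2a encodes the topoisomerase that untangles sister chromatids and is already made in S phase. It had 233, 240.3, 253 and 242 CPM in CYR61 libraries and 254 to 266 CPM (median 261) in control libraries. Its fall, to 0.928 times control, was the smallest called (adjusted p = 0.029). That call was lost in 12 of 24 alternatives, among them those without CYR61 replicate 1, 2 or 4 or control replicate 3, 5 or 6, with adjusted p of 0.00136 to 0.23 over the 24.

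All 7 spindle and microtubule factors fell. Aspm, which holds microtubule minus ends at the spindle poles, had 77.1, 86.3, 85.9 and 87.2 CPM in CYR61 libraries and 101 to 109 CPM (median 105) in control libraries. Its level was 0.802 times control (log2 fold change -0.32 ± 0.0356 SE, edgeR, Benjamini-Hochberg adjusted p = 1.58e-05). Ckap2 and Ckap2l are related microtubule-binding proteins of the spindle. Ckap2 had 19.7, 19.7, 21.4 and 19.3 CPM in CYR61 libraries and 23.4 to 27.3 CPM (median 24.3) in control libraries. Ckap2l had 28.4, 32.2, 33.5 and 32.1 CPM in CYR61 libraries and 34.4 to 39.6 CPM (median 37.5) in control libraries. Both stood apart from the controls without overlap, at 0.82 and 0.847 times control (adjusted p = 0.00181 and 0.00389). Prc1, which bundles the central spindle, had 67.3, 64.6, 67.4 and 65.99 CPM in CYR61 libraries and 73.7 to 82.2 CPM (median 77.0) in control libraries, or 0.858 times control (adjusted p = 0.000242). Hmmr, a spindle-pole protein that also binds hyaluronan, had 40.4, 41.3, 42.8 and 40.1 CPM in CYR61 libraries and 44.6 to 49.2 CPM (median 46.1) in control libraries, or 0.886 times control (adjusted p = 0.00425). For Tpx2, the activator of Aurora A, and for Nusap1, which stabilises spindle microtubules, the groups overlapped. Tpx2 had 48.3, 47.5, 57.2 and 51.4 CPM in CYR61 libraries and 55.7 to 63.1 CPM (median 59.4) in control libraries, replicate 3 lying within the control range. Nusap1 had 37.2, 42.3, 45.1 and 42.5 CPM in CYR61 libraries and 44.3 to 49.8 CPM (median 47.4) in control libraries, again with replicate 3 inside the control range. They stood at 0.856 and 0.882 times control (adjusted p = 0.00676 and 0.0266). The call of Nusap1 was lost without CYR61 replicate 1, 2 or 4 or control replicate 3 or 4, and in 9 of 24 alternatives in all (adjusted p of 0.00479 to 0.236 over the 24).

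Of the cyclins, Cdk1 and their switches, 4 of 7 fell, 0 rose and 3 did not pass. Ccnb1 and Ccnb2 encode the B-type cyclins that activate Cdk1 at mitosis. Ccnb1 had 39.5, 44.1, 45.4 and 42.5 CPM in CYR61 libraries and 45.6 to 51.95 CPM (median 50.9) in control libraries. Ccnb2 had 48.7, 49.0, 50.7 and 45.96 CPM in CYR61 libraries and 52.1 to 60.3 CPM (median 58.5) in control libraries. Neither overlapped between the groups, and they stood at 0.86 and 0.848 times control (edgeR, Benjamini-Hochberg adjusted p = 0.00356 and 0.00227). Cdc25b, the phosphatase that starts Cdk1 activation, had 125, 118, 116 and 121 CPM in CYR61 libraries and 131 to 135 CPM (median 133) in control libraries, or 0.9 times control (adjusted p = 0.00169). Foxm1, the transcription factor of the late cell cycle, had 61.0, 57.9, 60.6 and 65.1 CPM in CYR61 libraries and 64.99 to 70.8 CPM (median 69.6) in control libraries. The groups met at CYR61 replicate 4, and the level was 0.892 times control (adjusted p = 0.00857). Its call was lost without CYR61 replicate 2, where adjusted p was 0.056, the highest of 24 alternatives (lowest 0.00137). Ccna2 (cyclin A2), Cdk1 and Cdc25c did not pass, with adjusted p of 0.051, 0.0555 and 0.42. Ccna2 had 73.0 to 80.8 CPM in CYR61 libraries and 80.6 to 90.2 CPM in control libraries, Cdk1 had 35.2 to 39.3 and 39.3 to 44.3 CPM, and Cdc25c, a phosphatase that activates Cdk1, 4.71 to 7.22 and 5.73 to 7.29 CPM. Cdk1 did not overlap between the groups, and the 95% interval of its log2 fold change was -0.229 to -0.0491. Ccna2 was called lower in 9 of 24 alternatives, among them those without CYR61 replicate 3 or 4 or control replicate 1 or 2 (adjusted p of 0.00662 to 0.192 over the 24). Cdk1 was called in 5 of 24, without CYR61 replicate 4 among them (adjusted p of 0.0126 to 0.261).

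Among the mitotic kinases and the chromosomal passenger complex, 3 of 7 fell and 4 did not pass. Plk1, the Polo kinase of mitotic entry, had 48.7, 47.5, 49.9 and 46.7 CPM in CYR61 libraries and 50.7 to 56.6 CPM (median 52.97) in control libraries. Nek2, a kinase that separates centrosomes, had 26.9, 26.1, 28.4 and 26.2 CPM in CYR61 libraries and 28.9 to 32.3 CPM (median 30.7) in control libraries. Both lay below every control library, at 0.901 and 0.881 times control (edgeR, Benjamini-Hochberg adjusted p = 0.0192 and 0.0178). The passenger complex consists of Aurora B (Aurkb), Incenp, survivin (Birc5) and borealin (Cdca8). Of these 4, Cdca8 fell, with 32.3, 30.7, 35.2 and 33.7 CPM in CYR61 libraries and 34.9 to 38.3 CPM (median 36.8) in control libraries, an overlap by replicate 3. Its level was 0.895 times control (adjusted p = 0.0279). Birc5 had 38.1 to 41.98 CPM in CYR61 libraries and 41.5 to 48.0 CPM in control libraries, and missed the threshold (adjusted p = 0.0526). Aurkb had 43.4 to 47.4 CPM in CYR61 libraries and 46.2 to 50.3 CPM in control libraries, and Incenp had 115 to 125 and 119 to 129.5 CPM, with adjusted p of 0.169 and 0.241. The 95% intervals of their log2 fold changes were -0.168 to -0.0116 and -0.136 to -0.000381. Aurka, the Aurora kinase of the spindle poles, had 22.3, 22.6, 26.1 and 22.4 CPM in CYR61 libraries and 24.8 to 28.4 CPM in control libraries (adjusted p = 0.0841). Only replicate 3 of its CYR61 libraries reached the control range, and without it the adjusted p of Aurka was 0.0271, the lowest of 24 alternatives (highest 0.446). The calls of Plk1 and Nek2 were each lost without CYR61 replicate 2 or 4, and that of Cdca8 without CYR61 replicate 1 or 2 or control replicate 2 or 6. Over the 24 alternatives these 3 calls were lost in 5, 6 and 9, with adjusted p up to 0.141, 0.143 and 0.187. Birc5 was called in 6 of 24, among them those without CYR61 replicate 4 or control replicate 1 (adjusted p of 0.00978 to 0.226).

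Of the 5 spindle checkpoint genes, 2 fell and 3 did not pass. Bub1b encodes BubR1, part of the complex that blocks Cdc20. It had 64.0, 66.2, 69.6 and 72.8 CPM in CYR61 libraries and 73.8 to 79.7 CPM (median 77.0) in control libraries. Mad2l1 encodes Mad2, which binds Cdc20 directly, and had 24.8, 26.1, 25.2 and 25.6 CPM in CYR61 libraries and 26.9 to 31.3 CPM (median 29.0) in control libraries. Neither overlapped between the groups, and they stood at 0.888 and 0.869 times control (edgeR, Benjamini-Hochberg adjusted p = 0.00541 and 0.0147). Mad2l1 lost its call in 5 of 24 alternatives, none of which leaves out a single library (adjusted p of 0.00372 to 0.27 over the 24). The checkpoint kinase genes Bub1 and Ttk had 19.96 to 23.6 and 9.70 to 12.0 CPM in CYR61 libraries and 21.3 to 25.3 and 11.7 to 12.9 CPM in control libraries (adjusted p = 0.195 and 0.197). Bub3, whose product also works outside mitosis, had 69.1, 71.6, 76.3 and 77.6 CPM in CYR61 libraries and 70.5 to 77.9 CPM (median 74.6) in control libraries. The groups overlapped throughout, and the 95% interval of its log2 fold change was -0.0925 to 0.0625.

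Of the 4 partners and substrates of the anaphase-promoting complex, 3 fell and 1 did not pass. Cdc20, the activator of the complex, had 32.0, 34.9, 39.3 and 34.2 CPM in CYR61 libraries and 39.9 to 45.3 CPM (median 43.0) in control libraries. It stood at 0.825 times control (log2 fold change -0.28 ± 0.0503 SE, edgeR, Benjamini-Hochberg adjusted p = 0.00152). Cdca3, which takes part in the destruction of the Cdk1 inhibitor Wee1, had 43.2, 43.5, 44.6 and 45.4 CPM in CYR61 libraries and 46.9 to 54.9 CPM (median 50.1) in control libraries. Ube2c, the ubiquitin-conjugating enzyme of the complex, had 38.4, 42.7, 43.1 and 45.03 CPM in CYR61 libraries and 45.4 to 51.3 CPM (median 47.6) in control libraries. No CYR61 value of these 3 genes reached a control value, and Cdca3 and Ube2c stood at 0.871 and 0.886 times control (adjusted p = 0.00375 and 0.0219). Ube2c lost its call without CYR61 replicate 1 or 2, and in 6 of 24 alternatives in all (adjusted p of 0.00329 to 0.109 over the 24). Pttg1, which encodes securin, the inhibitor of separase, was the 1 member with a fold change above 0. It had 11.9, 10.7, 10.0 and 11.5 CPM in CYR61 libraries and 10.1 to 11.1 CPM (median 10.7) in control libraries, with a 95% interval of the log2 fold change from -0.0901 to 0.173.

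All 3 cytokinesis genes fell. Anln (anillin), a scaffold of the contractile ring, had 62.6, 59.0, 61.9 and 65.01 CPM in CYR61 libraries and 68.3 to 72.0 CPM (median 71.5) in control libraries, or 0.878 times control (edgeR, Benjamini-Hochberg adjusted p = 0.000801). Ect2, the exchange factor that activates RhoA at the division plane, had 23.0, 21.6, 26.1 and 26.9 CPM in CYR61 libraries and 26.9 to 32.6 CPM (median 27.9) in control libraries. Racgap1, its partner at the central spindle, had 69.3, 71.8, 70.8 and 69.8 CPM in CYR61 libraries and 72.7 to 80.6 CPM (median 76.3) in control libraries. The groups did not overlap for these genes, though CYR61 replicate 4 lay close to the lowest control for Ect2. Ect2 and Racgap1 stood at 0.845 and 0.918 times control (adjusted p = 0.0254 and 0.0257). Ect2 lost its call without CYR61 replicate 1 or 2, and Racgap1 without CYR61 replicate 1, 3 or 4 or control replicate 4. These losses occurred in 5 and 10 of 24 alternatives, with adjusted p up to 0.132 and 0.191.

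**Figure D3:**
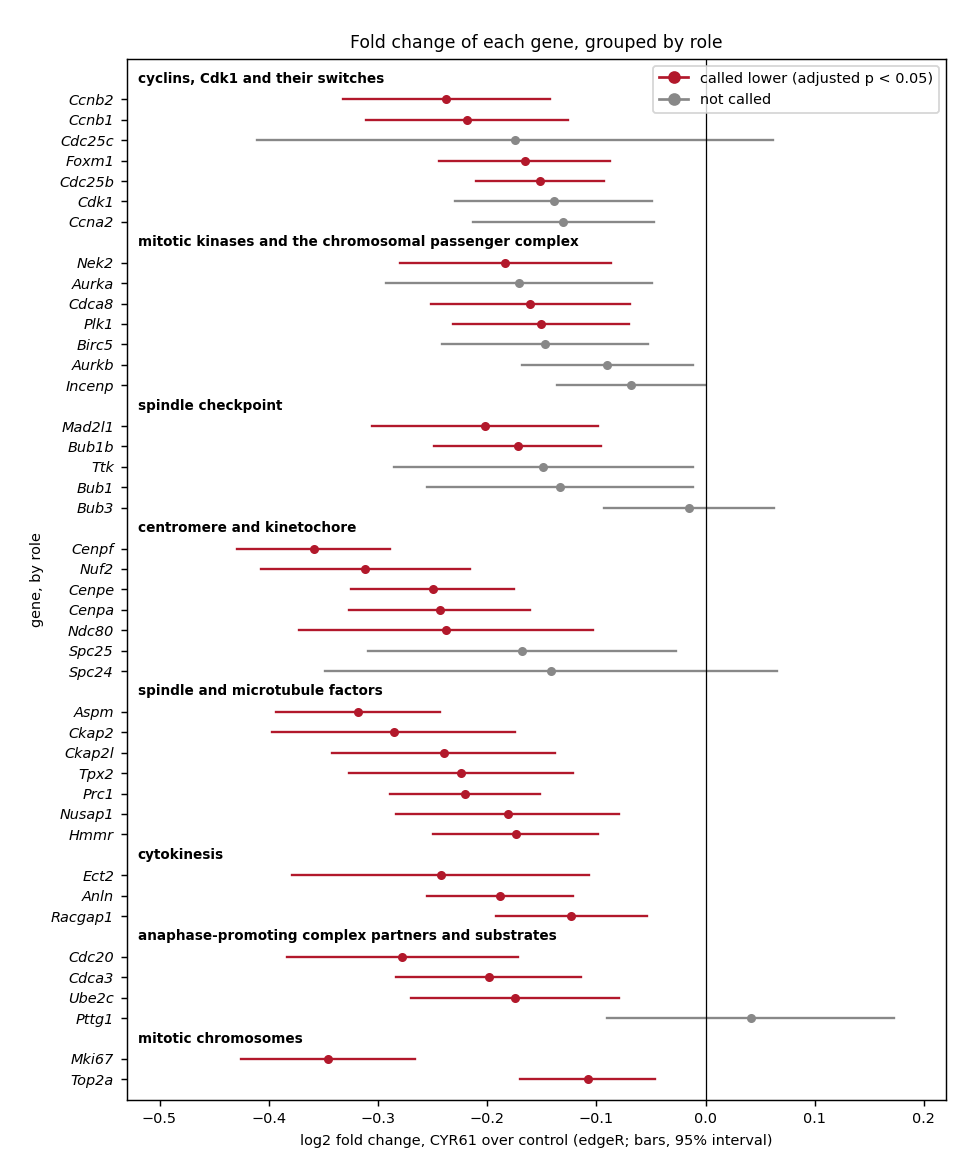
Log2 fold change of CYR61 over control for each of the 42 genes (point) with its 95% interval (bar) from the edgeR fit, grouped by role; red marks genes called lower and grey those that did not pass. All 7 spindle and microtubule factors and all 3 cytokinesis genes are red, and Pttg1 is the only point right of 0.

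Members of low level were not called. None of the 5 members with a control mean under 20 CPM (Spc25, Ttk, Pttg1, Spc24 and Cdc25c) was called, against 29 of the 37 members above it. Estimated counts of 13 members were not whole in at least 1 library, by exact equality to the rounded count, and Prc1, Ccnb1, Plk1, Racgap1 and Ccna2 were not whole in all 11. How the fractional counts arose is not given in the labels and was not tested. The longest transcripts of the members had a median GC content of 46.2% and a median length of 3435 bases, against 49.1% and 2974 bases for all genes tested, and Cenpf, Mki67 and Aspm have the longest. Across the 42 genes the log2 fold change had a Spearman correlation of -0.27 with transcript length and 0.28 with GC content, and -0.08 and 0.15 across all genes tested; genes are not independent replicates and share the same 11 libraries. With GC content and length trends removed per library, 27 members fell, and 406 of all 15135 genes tested.

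Of 65 further mitotic genes outside the 42, 16 fell (24.6%) and 0 rose by edgeR. Of all genes tested 2.63% fell and 5.33% rose. The median log2 fold change of the 65 genes was -0.13. DESeq2 and limma-voom each called 17 lower and 0 higher. At an unadjusted p under 0.05 the edgeR counts were 33 lower and 1 higher, against 9.26% and 11.2% of all genes tested. The 65 genes act beside the 42 in kinetochores, centromeres, spindle and cytokinesis. Cit (citron kinase, of the contractile ring) averaged 40.8 ± 1.83 CPM in CYR61 libraries and 49.4 ± 1.99 CPM in control libraries (SD, n = 4 and n = 7), and Cep55 (of the abscission site) 17.5 ± 2.05 and 22.2 ± 0.891 CPM. Knstrn (a kinetochore protein) averaged 51.3 ± 1.59 and 60.3 ± 2.21 CPM, and Gas2l3 103.9 ± 4.29 and 119.8 ± 2.82 CPM. Their adjusted p ran from 0.00023 for Cit to 0.00196 for Cep55 (edgeR, Benjamini-Hochberg). The count of 16 became 9 without CYR61 replicate 2 and 24 with counts scaled by library size alone. Without CYR61 replicate 1 or control replicate 6 it was 11. Over all genes, falls were 205 without CYR61 replicate 2 and 938 with library size alone, against 398 in the main fit. Without CYR61 replicate 1 or control replicate 6 they were 440 and 348. The 4 genes named kept their call in all 24 alternatives.

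Subunits of the anaphase-promoting complex were listed with its coactivator Fzr1, its inhibitor Fbxo5 and the ubiquitin-conjugating enzyme Ube2s. Of all genes tested 2.63% fell and 5.33% rose, so few calls are to be expected in short lists. Of these 17 genes 1 fell and 0 rose, with a median log2 fold change of -0.01. The gene that fell was Anapc15, with 36.3 ± 1.34 CPM in CYR61 libraries and 42.1 ± 2.29 CPM in control libraries (adjusted p = 0.00543, and 0.00112 to 0.0792 over 24 alternatives). By edgeR 0 of 15 genes of MuvB, DREAM and NF-Y, the regulators that bind the CHR and CCAAT letters, fell or rose, with a median of -0.02. DESeq2 and limma-voom called 0 as well. At an unadjusted p under 0.05, 1 was lower and 0 were higher, against 9.26% and 11.2% of all genes tested. Scaling by library size alone called 1 lower. That gene was Lin54, the DNA-binding subunit of MuvB, with 26.9 ± 1.52 CPM in CYR61 libraries and 29.1 ± 1.08 CPM in control libraries (adjusted p = 0.164, and 0.0402 to 0.548 over 24 alternatives). Among 15 genes of G2 brakes and mitotic phosphatase control 1 fell, Cdkn1b (p27, an inhibitor of cyclin-dependent kinases), at 57.8 ± 2.11 CPM in CYR61 and 63.0 ± 2.35 CPM in control libraries (adjusted p = 0.0466). That call was lost in 14 of 24 alternatives (adjusted p of 0.00852 to 0.193), among them limma-voom and the fits without CYR61 replicate 1, 2 or 4 or any of control replicates 1 to 6. Mastl, the kinase that restrains the phosphatase PP2A in mitosis, had 17.9 ± 0.465 CPM in CYR61 libraries and 20.7 ± 2.06 CPM in control libraries and did not pass (adjusted p = 0.0818). It was called lower in 3 of 24 alternatives, among them those without control replicate 7 and with library size alone (adjusted p of 0.0316 to 0.201). Chek2, a kinase of the DNA damage checkpoint, had 20.3 ± 1.21 CPM in CYR61 libraries and 21.9 ± 1.36 CPM in control libraries (adjusted p = 0.283). Wee1, the kinase that holds Cdk1 inactive, had 22.1 ± 1.14 CPM in CYR61 libraries and 23.5 ± 1.68 CPM in control libraries (adjusted p = 0.424).

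Of 46 tested G1/S and DNA replication genes, which act in the preceding phases, 0 fell and 1 rose by edgeR. Of all genes tested 2.63% fell and 5.33% rose. The median log2 fold change of the 46 genes was 0.01 and became -0.03 with scaling by library size alone. At an unadjusted p under 0.05, 1 of the 46 was lower and 7 were higher, against 9.26% and 11.2% of all genes tested. DESeq2 and limma-voom called 0 of these genes lower and 1 and 0 higher. Their summed level was 1362 to 1423 CPM in CYR61 libraries and 1342 to 1458 CPM in control libraries, which overlapped. The gene that rose was E2f1, a transcription factor of S-phase entry, at 36.1 ± 1.61 CPM in CYR61 libraries and 32.4 ± 1.60 CPM in control libraries (adjusted p = 0.0461). E2f1 lost its call in 16 of 24 alternatives (adjusted p of 0.016 to 0.161), among them limma-voom and the fits without CYR61 replicate 2, 3 or 4 or any of control replicates 1 to 6. Tk1, Uhrf1 and Tyms, which act in nucleotide supply and in copying DNA methylation, averaged 39.3, 41.9 and 10.6 CPM in CYR61 libraries and 35.6, 37.3 and 9.12 CPM in control libraries and did not pass. Whether the fold changes of the G1/S list differ from those of the 42 genes was not tested.

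**Figure D4:**
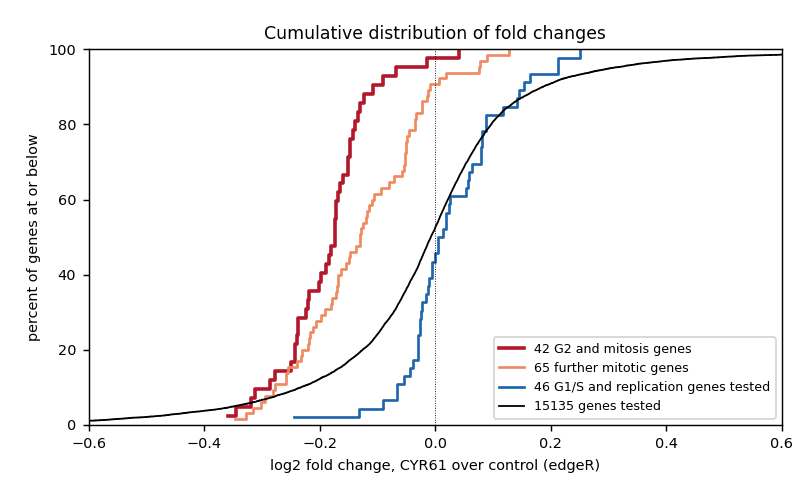
Percent of genes (y) with a log2 fold change of CYR61 over control at or below the value on x, for the 42 G2 and mitosis genes, 65 further mitotic genes, 46 tested G1/S and replication genes and all 15135 genes tested; 1 of the 42 lies above 0. The medians are -0.17, -0.13, 0.01 and -0.01.

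Of 10 macrophage markers, 6 rose, 4 did not pass and 0 fell by edgeR, against 5.33% of all genes tested that rose, and 0 fell by DESeq2 or limma-voom, with 0 lower at an unadjusted p under 0.05. Adgre1 stood at 1.23 times control and kept its call in all 24 alternatives. Cd68 stood at 0.978 times control and did not pass. The call of Csf1r, at 1.09 times control, was lost in 3 of 24 alternatives, with library size alone among them (adjusted p of 0.00017 to 0.126). Their part in the fall of the mitotic genes was not tested. In the authors' deposited table, 28 of the 42 genes were lower at an adjusted p under 0.05 and 0 were higher, against 4.44% of its 13999 genes that were lower. Of the 29 genes called here, 27 were among those 28.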

How the data were processed

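The data are total RNA sequencing of 11 libraries of mouse bone marrow-derived macrophages, prepared after ribosomal RNA removal with random priming, per the labels' protocols. The authors deposited expected counts (estimated counts), not normalized, per Ensembl gene. They also deposited their own comparison, with log2 fold changes, p-values and scores. DRAGEN is named in the submitters' processing notes. Its role, the build, the annotation and the strand setting were not given in the sources used here. Of 55774 lines in the table, 287 repeats were dropped, and each of the 42 names matched 1 gene ID. The members and gene lists were chosen with earlier results of these data known.

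Estimated counts were rounded. The test was the quasi-likelihood test of edgeR 4.0.16 under R 4.3.3 (filterByExpr, TMM, glmQLFit and glmQLFTest, two-sided, 11 libraries, no covariates), and p-values were adjusted by Benjamini-Hochberg over 15135 genes at a threshold of 0.05. Standard errors are the log2 fold change divided by the root of F. The biological coefficient of variation was 5.64%. Depth was 14912123 to 21047654 counts per library. Alternatives were DESeq2 1.42.0, limma-voom (limma 3.58.1), RLE factors, library size alone, other filters, the replicate number as a block, GC content and length offsets, 1 surrogate variable (sva 3.50.0), leaving out libraries and an adjusted p under 0.01. Length and GC content came from GENCODE M21, matched by gene ID for 99.8% of genes tested. Levels per kilobase use merged exon length, which may differ from the authors' annotation. Named genes are every called member with all values, the remaining members by range, and from each context list up to 4 genes that average 1 CPM or more, by p, with Adgre1, Csf1r and Cd68 as macrophage markers. On simulated counts with 200 changed genes in 14951 tested, the fit called 60% of genes set to 0.8 times control and 0.0542% of unchanged genes. The simulated falls were 0.5 and 0.8 times control, and none was as small as that of the median member, 0.886 times control. The changed genes were drawn from all genes averaging 1 CPM or more. Of the 42 members, 37 had a control mean of 20 CPM or more, so the 60% is no rate for the members.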

Additional observations from a re-analysis of the deposited data

Results flagged for a closer look

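Within groups of 4 CYR61 or 7 control libraries, 84 sets of values were examined for a library far from the others, and 3 were found; chance gives about 1 in 20. Aspm in CYR61 replicate 1, at 77.1 CPM, was far below the other CYR61 libraries (85.9 to 87.2 CPM). Aurka in CYR61 replicate 3, at 26.1 CPM, was far above the other CYR61 libraries (22.3 to 22.6 CPM). Ckap2 in control replicate 4, at 27.3 CPM, was far above the other control libraries (23.4 to 24.4 CPM). The calls of Aspm and Ckap2 held in all 24 alternatives, those without these libraries included.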

How the results depend on the processing

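Over 24 alternatives fitted to each gene, 12 of the 29 called members kept their call in every one and 17 lost it in at least 1; 6 members not called passed in at least 1. No called member changed direction, and Pttg1 and Bub3 changed sign. The count of members called lower was 35 with library size alone, 26 with no filter, 31 with DESeq2 and 27 with GC content and length offsets, and 19 at an adjusted p under 0.01. Leaving out 1 library gave 20 to 31, and 0 were called higher in each fit. In a fit added after the data were seen, which drops CYR61 replicates 1 and 4 at once, it was 14. Over all genes, falls were 938 with library size alone, 331 of 28525 with no filter, 434 with DESeq2 and 406 with the offsets. They were 163 at an adjusted p under 0.01 and 290 in the added fit, against 398 in the main fit. The median log2 fold change of the 42 genes was -0.2189 with library size alone, which moved the median of all genes from -0.0076 to -0.0523, and -0.2036 to -0.164 without 1 library. Relative to the median of all genes it was -0.1666 in both scalings. A change of scaling alone shifts all genes nearly alike, so this equality follows from the method and is no separate check.

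Replicate numbers did not pair the libraries: deviations of same-numbered libraries had correlations of -0.0931 to 0.0292, and no CYR61 library correlated best with its own number. With the replicate block on 8 libraries 20 members fell, against 19 in the same 8 unpaired, and 20 with the block and the GC content and length offsets. Of all 14776 genes tested in these fits, 450, 438 and 479 fell. Over all genes, 1204 calls (806 higher, 398 lower) became 1467 (529 higher, 938 lower) with library size alone and 640 (477 higher, 163 lower) at an adjusted p under 0.01. Without 1 library they were 788 to 1372 (583 to 903 higher and 205 to 469 lower). The causes were not tested. The standard errors of the log2 fold change were largest for Cdc25c and Spc24 (0.112 and 0.0982). That of Pttg1 was 0.0624, below those of Ect2 and Ndc80 (0.0644 and 0.0639).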
